A study of Homo sapiens with 6 samples.

Results

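The genes described here are the 4 receptors of the ERBB family (EGFR, ERBB2, ERBB3 and ERBB4), 3 adaptor genes whose proteins carry the signal of the active receptors (SHC1, GRB2 and GAB1) and 3 genes whose proteins restrain the receptors (ERRFI1, LRIG1 and CBL). They were taken by name, 10 of the 20263 genes in the deposited table, and all 10 had a line in it. The table holds mRNA levels in TPM, a share of the library's transcripts corrected for transcript length, so levels of different genes can be set side by side. It covers 3 samples of HCT116 cells labelled CSE treated and 3 samples of HCT116 cells labelled WT. HCT116 is an established human colorectal cancer line of epithelial origin. CSE is not spelled out in the labels and is read here as cigarette smoke extract, since the series title names smoking. The title also names EGFR and its ligand gene AREG as the end of the axis under study. The sources used here give no dose, exposure time or solvent for the WT cells. The labels do not tie replicates to separate cultures, and p values then measure only a spread between samples that may be technical.

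ERBB receptors are transmembrane tyrosine kinases that pair when a ligand binds and then phosphorylate each other's tails. ERBB2 has no known ligand of its own and serves as a partner, and ERBB3 has little kinase activity but binds phosphoinositide 3-kinase well. Phosphorylated tails recruit SHC1 and GRB2, which bring the exchange factors that activate RAS, and GAB1, a docking protein for phosphoinositide 3-kinase and the phosphatase encoded by PTPN11. ERRFI1, also called MIG6, binds the kinase domain of ERBB receptors and blocks it. LRIG1 is a transmembrane protein that lowers receptor protein, and CBL is the ubiquitin ligase that marks activated EGFR for degradation in lysosomes.

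Across the whole table, 12793 genes reached 1 TPM in at least 3 libraries and were tested with limma on log2(TPM + 1), and 6407 of them, 50.1%, passed at a Benjamini-Hochberg adjusted p under 0.05. Sequencing depth is unknown, because every TPM column has the same total. Epithelial genes were high in every library, with KRT19 at 2261 to 2456 TPM in CSE and 1801 to 1904 TPM in WT and EPCAM at 338 to 360 TPM in CSE and 306 to 328 TPM in WT. KRT18 lay the other way, at 1465 to 1530.5 TPM in CSE and 1734 to 1799 TPM in WT, and the ranges of the groups overlapped for KRT8 and CDH1. The intestinal markers CDX1, VIL1 and LGR5 were at or near 0 in both groups, and the intestinal factor CDX2 lay at 9.77 to 10.5 TPM in CSE and 8.29 to 9.68 TPM in WT. Of 11 markers of fibroblasts, leukocytes and endothelium, COL1A1 and CD68 reached 1 TPM in every library, the others stayed under 1 TPM, and PTPRC, CD3E and COL1A2 were at or near 0. The summed level was 38.0 to 38.7 TPM in CSE and 43.9 to 46.0 TPM in WT for 4 fibroblast genes, 12.1 to 13.1 TPM in CSE and 17.8 to 18.3 TPM in WT for 4 leukocyte genes, and 0.54 to 0.73 TPM in CSE and 0.47 to 0.81 TPM in WT for 3 endothelial genes. COL1A1 made up most of the fibroblast sum, at 36.95 to 37.49 TPM in CSE and 42.57 to 44.84 TPM in WT. CD68 made up most of the leukocyte sum, at 11.67 to 12.68 TPM in CSE and 17.12 to 17.84 TPM in WT. The samples are bulk RNA of a cell line, so these sums do not show that other cell types were present. A change in cell numbers and a change in RNA per cell cannot be told apart. The part of these genes in the results was not tested.

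CSE replicate 3 stood apart from the other CSE libraries in a way that touches the genes below. It had the lowest CSE value for each of the 10 genes. The second principal component of all tested genes, 9.26% of the variance, placed it at -9.31, against 4.35 for CSE replicate 1 and 5.70 for CSE replicate 2. Its values were lower the longer the gene. With the genes split by summed exon length into 4 classes of 3196, its median difference from the mean of the other CSE libraries was -0.12 on the log2 scale in the longest class and 0.025 in the shortest, and no WT library had medians as far apart. EGFR (12521 bases of annotated exons), CBL (11740), GAB1 (10119), ERBB2 (10321) and ERBB3 (9039) lie in the longest class, and SHC1, GRB2 and ERRFI1 in the second shortest. The results of the 9 tested members and the counts of 5 of the larger gene lists are therefore also given without that library, and the part of gene length in each result was not tested except where a fit with the length trend removed is given.

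**Figure D1:**
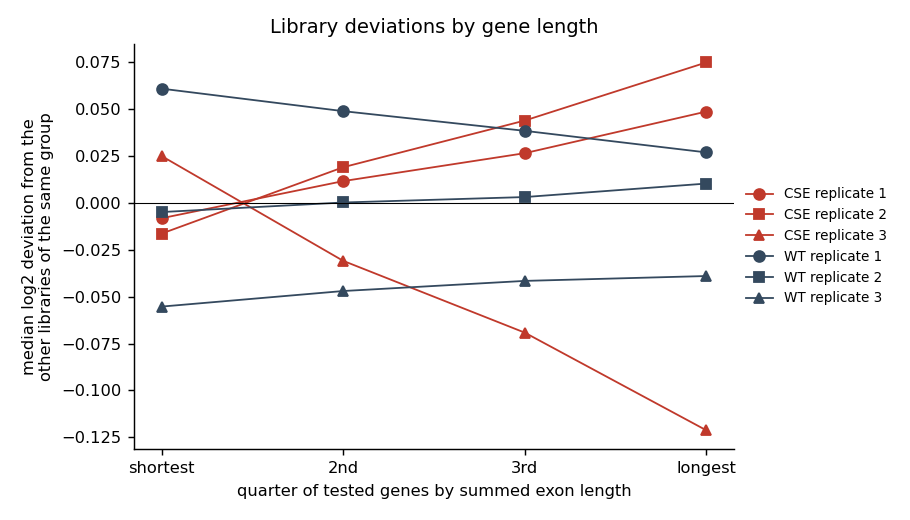
Median deviation of each library from the mean of the other libraries of its group (y axis, log2(TPM + 1) units) for tested genes in 4 classes of summed exon length (x axis, shortest to longest), with CSE libraries in red and WT libraries in blue. CSE replicate 3 goes down from 0.025 in the shortest class to -0.12 in the longest, whereas the WT libraries stay between -0.055 and 0.061.

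Stretches of 4 promoters are shown, those of the tested members with the largest rise (ERRFI1) and the largest fall (LRIG1), of the receptor named in the title (EGFR) and of the adaptor that rose (SHC1). They come from RefSeq on GRCh38.p14, are written 5′ to 3′ on the gene's own strand, and leave out any base in an exon of GENCODE 29. Capitals mark GGGCGG, the GC box, CCAAT and TATATA, searched on both strands. Of the 10 genes, 7 had an entry. ERRFI1 is shown for chr1:8026310-8026559 (minus strand), EGFR for chr7:55018767-55019016 (plus strand), SHC1 for chr1:154974396-154974626 (minus strand) and LRIG1 for chr3:66501264-66501371 (minus strand).
ERRFI1: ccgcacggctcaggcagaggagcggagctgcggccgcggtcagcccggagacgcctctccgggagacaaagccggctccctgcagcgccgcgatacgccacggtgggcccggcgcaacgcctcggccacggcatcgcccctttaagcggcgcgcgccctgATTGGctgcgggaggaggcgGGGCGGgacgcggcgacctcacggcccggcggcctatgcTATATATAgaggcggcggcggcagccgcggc
EGFR: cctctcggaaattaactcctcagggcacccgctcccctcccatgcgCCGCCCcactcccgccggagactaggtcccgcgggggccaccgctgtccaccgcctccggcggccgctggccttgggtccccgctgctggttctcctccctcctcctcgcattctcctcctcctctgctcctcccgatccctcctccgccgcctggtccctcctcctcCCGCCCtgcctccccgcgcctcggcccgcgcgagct
SHC1: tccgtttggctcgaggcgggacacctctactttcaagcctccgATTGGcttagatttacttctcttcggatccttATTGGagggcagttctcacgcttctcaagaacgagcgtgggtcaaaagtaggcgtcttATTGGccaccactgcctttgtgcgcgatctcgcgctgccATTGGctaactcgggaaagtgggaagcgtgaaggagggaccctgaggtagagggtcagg
LRIG1: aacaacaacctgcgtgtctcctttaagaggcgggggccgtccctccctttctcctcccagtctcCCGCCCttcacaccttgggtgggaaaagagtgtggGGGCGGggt

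The ERRFI1 stretch holds 1 GC box, 1 CCAAT on the opposite strand and the run TATATATA, which gives 2 overlapping matches to TATATA, close to the start site. TATATA is found in 3.73% of 35116 windows of the 250 bases before a RefSeq start site, GGGCGG in 42.6% and CCAAT in 32.0%. The motif TATAAA was searched as well, had no match in the ERRFI1 window and is found in 10.7% of windows. The EGFR stretch has 2 GC boxes on the opposite strand and no match to CCAAT or TATATA. SHC1 has 4 matches to CCAAT, all on the opposite strand, and 2.93% of windows hold at least 3. The part of LRIG1 shown has 2 GC boxes, and the rest of its window lies in an annotated exon. G and C made up 75.2% of the ERRFI1 bases, 73.6% of the EGFR bases and 55.0% of the SHC1 bases shown, with a median of 58.0% over all windows. In the nearest 250 bases to the first listed start site, neither the AP-1 motif TGANTCA nor the STAT motif TTCNNNGAA had a match for ERRFI1, EGFR, SHC1 or LRIG1, and each is found in 6.57% of windows. Windows of other listed start sites did match AP-1, with 2 matches in window 2 of EGFR, 1 in window 2 of SHC1 and 2 in window 4 of LRIG1. A match is a description of letters and says nothing of binding.

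ERRFI1 had the largest change among the 9 genes tested and was the most abundant of them in both groups. Its level was 1056, 1045 and 987 TPM in CSE replicates 1, 2 and 3, against 696, 695 and 699.5 TPM in WT replicates 1, 2 and 3. Every CSE library lay above every WT library, and the WT libraries were almost level with each other. The mean was 1029 ± 37.3 TPM in CSE and 697 ± 2.27 TPM in WT (SD, n = 3 each), so CSE stood at 1.48 times the WT mean (limma log2 fold change 0.56 with SE 0.0370, adjusted p = 7.18e-11). A change of at least that size was seen in 3.46% of the genes tested, and a mean level at least as high in 0.782% of them. It was 0.59 on the log2 scale without CSE replicate 3. Under quantile normalization, which gives every library the same distribution of values, it was 0.36, still past the threshold (limma adjusted p = 4e-06).

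LRIG1 moved the other way, at a far lower level. It stood at 4.53, 4.15 and 4.03 TPM in CSE replicates 1, 2 and 3 and at 6.42, 5.75 and 5.37 TPM in WT replicates 1, 2 and 3, so the groups did not overlap. The mean was 4.24 ± 0.261 TPM in CSE and 5.85 ± 0.532 TPM in WT (SD, n = 3 each), 1.38-fold lower in CSE (limma log2 fold change -0.39 with SE 0.0785, adjusted p = 0.000342), and -0.36 without CSE replicate 3. Exons of LRIG1 overlap 907 bases of exons of SLC25A26, a mitochondrial carrier gene on the opposite strand, and whether reads were counted by strand is not stated. SLC25A26 averaged 6.89 TPM in CSE and 6.48 TPM in WT (log2 fold change 0.076, limma adjusted p = 0.381).

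CBL, the third restraining gene, did not pass the test. It stood at 42.0, 43.2 and 31.4 TPM in CSE replicates 1, 2 and 3 and at 40.6, 42.9 and 42.0 TPM in WT replicates 1, 2 and 3. CSE replicates 1 and 2 lay within or just above the WT range, and CSE replicate 3 lay well below it, and 0.3% of the genes tested were as far below the other CSE libraries there. The log2 fold change was -0.12 (SE 0.0760, limma adjusted p = 0.211) with a 95% interval of -0.27 to 0.041, and 0.026 without CSE replicate 3 (limma adjusted p = 0.613). It passed as lower without CSE replicate 1 (-0.18, limma adjusted p = 0.0235) and without CSE replicate 2 (-0.20, limma adjusted p = 0.0114), both of which leave replicate 3 as 1 of the CSE pair. CBL shares 509 exon bases with MCAM, an adhesion molecule gene on the opposite strand, which was at 34.1 TPM in CSE and 57.4 TPM in WT (log2 fold change -0.73, limma adjusted p = 5.79e-11).

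**Figure D2:**
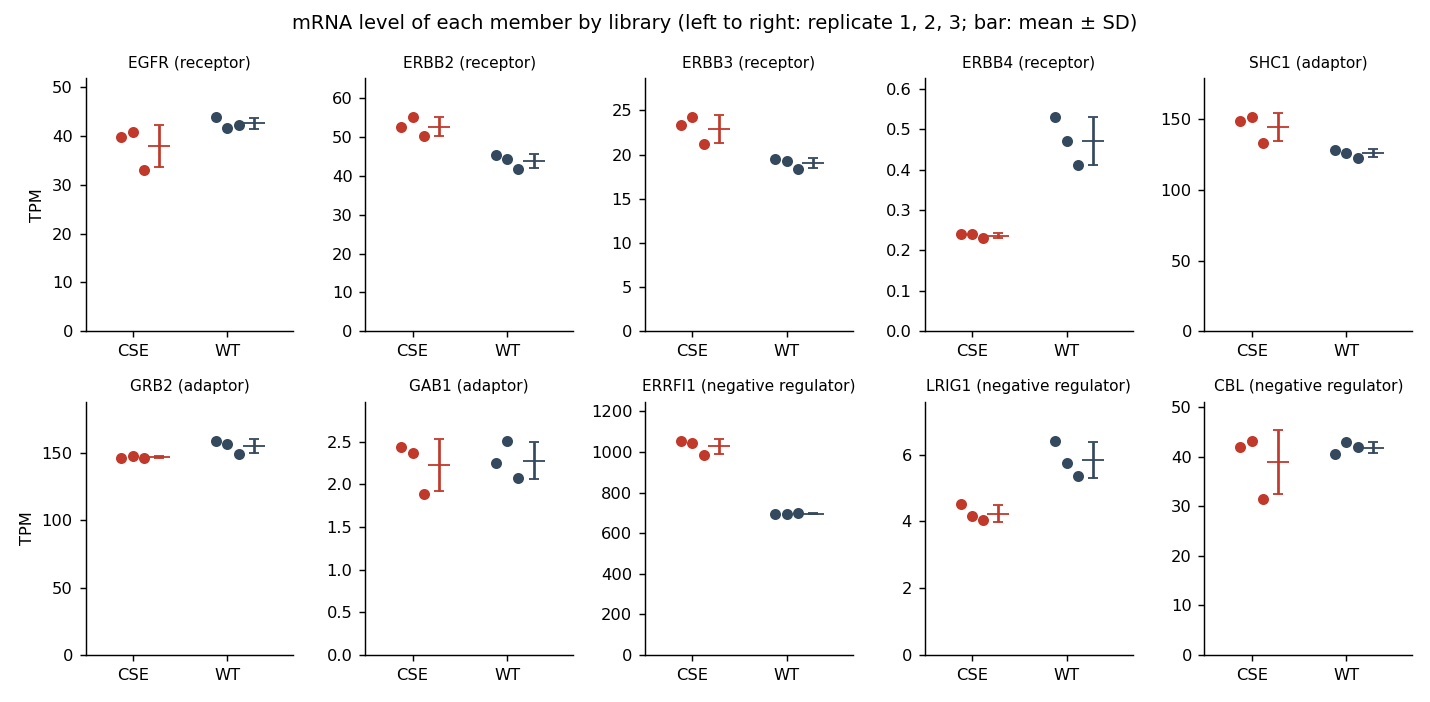
TPM (y axes, each from 0) of the 10 genes in each library, CSE in red and WT in blue, with points for replicates 1, 2 and 3 from left to right and a bar for the mean ± SD of the 3 libraries. ERRFI1 is between 987 and 1056 TPM in CSE and near 697 TPM in WT. CSE replicate 3 is the lowest CSE point for each of the 10 genes, for GRB2 only by a hair (146.11 TPM, against 146.14 TPM in CSE replicate 1).

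Among the receptors, ERBB2 and ERBB3 rose by similar amounts and EGFR was lower. ERBB2 was at 52.7, 55.2 and 50.2 TPM in CSE replicates 1, 2 and 3 and at 45.3, 44.2 and 41.8 TPM in WT replicates 1, 2 and 3. The groups did not overlap, and the mean was 52.7 ± 2.48 TPM in CSE and 43.8 ± 1.77 TPM in WT (SD, n = 3 each), so CSE stood at 1.20 times the WT mean (limma log2 fold change 0.26 with SE 0.0479, adjusted p = 0.000115). The value was 0.29 without CSE replicate 3. A gene on the opposite strand, MIEN1, shares 571 exon bases with ERBB2 and was at 80.6 TPM in CSE and 74.8 TPM in WT (log2 fold change 0.10, limma adjusted p = 0.0528).

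ERBB3 was at 23.4, 24.2 and 21.1 TPM in CSE replicates 1, 2 and 3 and at 19.5, 19.2 and 18.4 TPM in WT replicates 1, 2 and 3. Again each CSE library was above each WT library. The mean was 22.9 ± 1.60 TPM in CSE and 19.0 ± 0.598 TPM in WT (SD, n = 3 each), so CSE stood at 1.20 times the WT mean (limma log2 fold change 0.25 with SE 0.0567, adjusted p = 0.000806), and the log2 fold change was 0.31 without CSE replicate 3.

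EGFR, the receptor of amphiregulin and the receptor named in the series title, was at 39.9, 40.9 and 33.0 TPM in CSE replicates 1, 2 and 3 and at 43.9, 41.7 and 42.2 TPM in WT replicates 1, 2 and 3. The groups did not overlap, but CSE replicates 1 and 2 came within 2 TPM of the lowest WT library. The log2 fold change was -0.17 (SE 0.0607, limma adjusted p = 0.0238), with a 95% interval of -0.30 to -0.044. The call was lost without CSE replicate 3 (log2 fold change -0.076, limma adjusted p = 0.13), without WT replicate 1 (-0.15, 0.118) and without WT replicate 3 (-0.18, 0.053). With a trend on exon length removed from every library, a setting chosen after the data were seen, the log2 fold change was -0.13 and the call held (limma adjusted p = 0.0189). Giving each library a weight by its fit to the others, also chosen after the data were seen, put it at -0.085 (limma adjusted p = 0.0397). EGFR-AS1, an antisense gene with 186 bases of shared exons, is not among the 20263 genes with a level. The same holds for AL034417.4, antisense to ERRFI1 with 155 shared exon bases, and AL451085.2, antisense to SHC1 with 326.

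ERBB4 mRNA was nearly absent. It stood at 0.24, 0.24 and 0.23 TPM in CSE replicates 1, 2 and 3 and at 0.53, 0.47 and 0.41 TPM in WT replicates 1, 2 and 3, so it missed the filter of 1 TPM and had no part in the test. All CSE values lay below all WT values, and the CSE mean was 0.237 TPM with all libraries and 0.24 TPM without CSE replicate 3. In the fit without the filter, where 33.3% of 17857 genes were called, its log2 fold change on the log2(TPM + 1) scale was -0.25 (SE 0.0427, limma adjusted p = 0.00308), a scale that understates changes at such levels.

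The mix of receptor mRNAs differed between the groups in every library, while the comparison of their sum depended on CSE replicate 3. The 4 receptors together held 116, 121 and 105 TPM in CSE replicates 1, 2 and 3 and 109, 106 and 103 TPM in WT replicates 1, 2 and 3. CSE replicates 1 and 2 lay above every WT library, and CSE replicate 3 lay within the WT range. EGFR made up 34.3%, 33.9% and 31.5% of that sum in the CSE libraries and 40.2%, 39.5% and 41.1% in the WT libraries. The share of ERBB2 was 45.4%, 45.8% and 48.0% in CSE and 41.4%, 41.9% and 40.7% in WT, and the share of ERBB3 was 20.1%, 20.1% and 20.2% in CSE and 17.9%, 18.2% and 17.9% in WT. In WT neither ERBB2 nor EGFR was consistently the higher of the pair, and in CSE ERBB2 was the higher in each library.

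Ratios taken within a library do not change when all values of a library are multiplied by the same factor. Quantile normalization does change them. Under it the log2 fold change was 0.36 for ERRFI1 and -0.18 for EGFR, against 0.56 and -0.17 as reported. The part of the length trend of CSE replicate 3 in the ratios was not tested. ERBB2 mRNA was 1.32, 1.35 and 1.52 times that of EGFR in CSE replicates 1, 2 and 3 and 1.03, 1.06 and 0.991 times in WT replicates 1, 2 and 3. ERRFI1 mRNA was 26.5, 25.5 and 29.9 times that of EGFR in the CSE libraries and 15.8, 16.7 and 16.6 times in the WT libraries. The ranges of both ratios are apart by more than the spread within either group, and without CSE replicate 3 the mean ratio in CSE was still 1.30 times the WT mean for ERBB2 to EGFR and 1.59 times for ERRFI1 to EGFR. LRIG1 mRNA was 0.114, 0.101 and 0.122 times that of EGFR in CSE and 0.146, 0.138 and 0.127 times in WT, groups that did not overlap but came close. The mean ratio of LRIG1 to EGFR in CSE was 0.820 times the WT mean, and 0.785 times without CSE replicate 3. These ratios were formed with the changes of the single genes known, so they are given as values with no test.

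**Figure D3:**
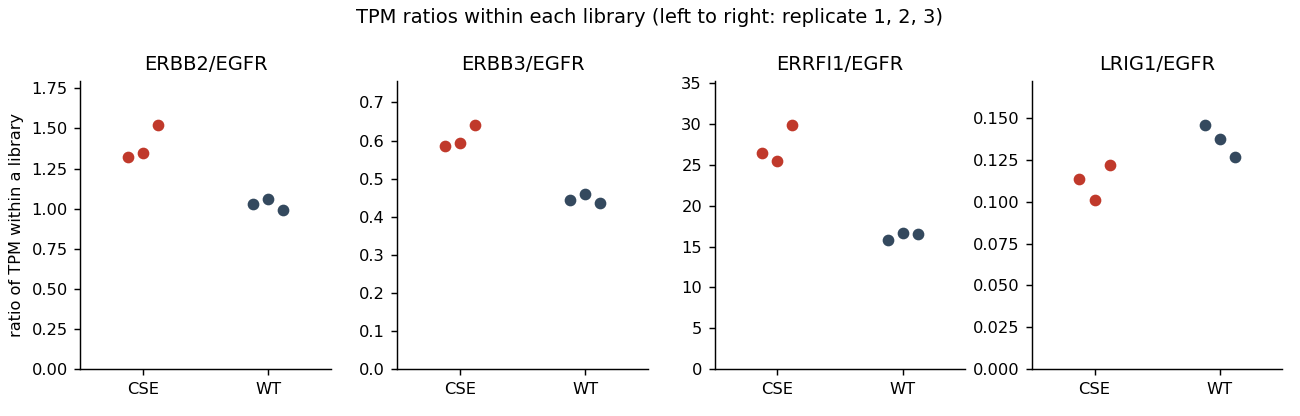
Ratio of the TPM of ERBB2, ERBB3, ERRFI1 and LRIG1 to that of EGFR within each library (y axes, from 0), with CSE in red and WT in blue and replicates 1, 2 and 3 from left to right. The ratio of ERRFI1 to EGFR is 25.5 or more in every CSE library and 16.7 or less in every WT library.

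Of the adaptors, SHC1 rose and the other two did not pass. SHC1 was at 149, 152 and 134 TPM in CSE replicates 1, 2 and 3 and at 129, 126 and 123 TPM in WT replicates 1, 2 and 3. All CSE values exceeded all WT values, with CSE replicate 3 the closest to WT. The mean was 145 ± 9.86 TPM in CSE and 126 ± 2.92 TPM in WT (SD, n = 3 each), so CSE stood at 1.15 times the WT mean (limma log2 fold change 0.20 with SE 0.0454, adjusted p = 0.00108), and the log2 value was 0.25 without CSE replicate 3. PYGO2, which overlaps 335 exon bases of SHC1 on the same strand, was at 41.3 TPM in CSE and 41.6 TPM in WT (limma adjusted p = 0.87).

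GRB2 was at 146, 148 and 146 TPM in CSE replicates 1, 2 and 3 and at 159, 157 and 149 TPM in WT replicates 1, 2 and 3. The groups did not overlap, yet the log2 fold change of -0.078 (SE 0.0388) did not pass (limma adjusted p = 0.0993), and it was -0.076 without CSE replicate 3. It passed as lower under quantile normalization (-0.13, limma adjusted p = 0.0015), with mitochondrially encoded genes left out and the rest rescaled (-0.14, 0.00149) and without WT replicate 3 (-0.10, 0.0432). Mitochondrially encoded genes held 25.5% to 25.8% of the TPM in CSE and 27.0% to 30.2% in WT, which moves the TPM of all other genes.

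GAB1 was low, at 2.44, 2.37 and 1.88 TPM in CSE replicates 1, 2 and 3 and at 2.25, 2.51 and 2.07 TPM in WT replicates 1, 2 and 3. The groups overlapped, and the log2 fold change of -0.023 (SE 0.0961, limma adjusted p = 0.859) had a 95% interval of -0.22 to 0.18. Its sign turned without CSE replicate 3 (0.058) and under quantile normalization (0.038).

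Set against each other, the 3 classes did not move as units. Of the 3 receptors tested, 2 rose and 1 fell, of the 3 adaptors 1 rose and none fell, and of the 3 restraining genes 1 rose and 1 fell. The median log2 fold change was 0.25 for the receptors (ERBB3), -0.023 for the adaptors (GAB1) and -0.12 for the restraining genes (CBL). Over all genes tested it was -0.0039. With 3 genes tested in each class the median is the value of a single gene, and the restraining genes ran from -0.39 to 0.56. Without CSE replicate 3 the class medians were 0.29 (ERBB2), 0.058 (GAB1) and 0.026 (CBL), and EGFR was no longer called. Over all genes tested, the median log2 difference of that library from the mean of the other CSE libraries was -0.052. In total 4 of the 9 tested genes rose and 2 fell, where 24.5% of all genes tested rose and 25.6% fell. Of the calls over all genes 48.9% were higher in CSE, and 34.1% were with mitochondrially encoded genes left out. The median size of the change, without regard to sign, was 0.20 for these 9 genes and 0.14 for all genes tested. The values of CSE and WT did not overlap for 57.4% of all genes tested, 27.5% with CSE higher and 29.9% with CSE lower. Of the 9 members tested, 4 did not overlap with CSE higher, 3 did not overlap with CSE lower, and GAB1 and CBL overlapped.

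**Figure D4:**
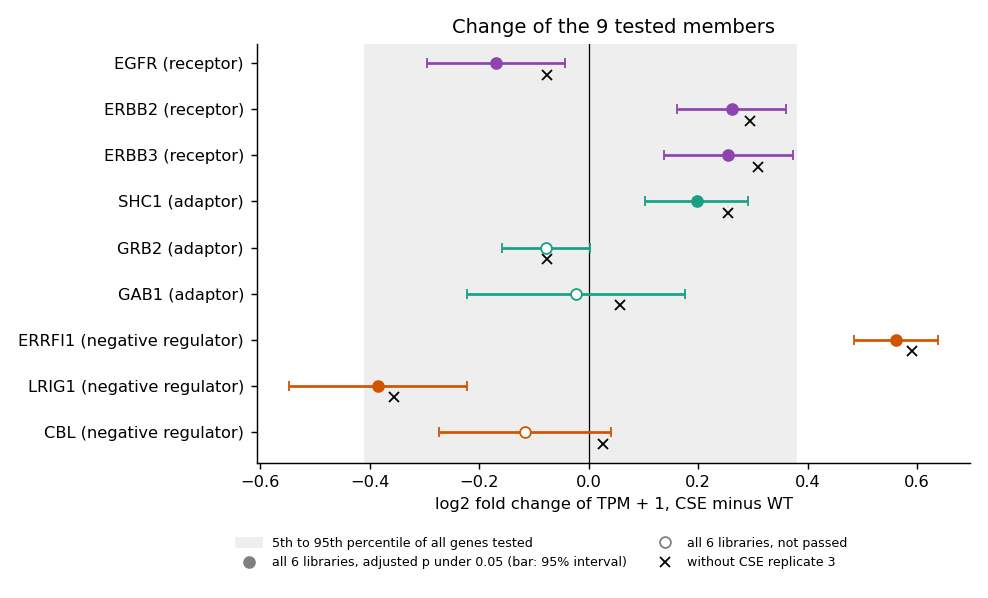
log2 fold change of TPM + 1, CSE minus WT (x axis), of the 9 tested genes with 95% intervals, filled where the adjusted p is under 0.05, with crosses for the fit without CSE replicate 3 and a grey band for the 5th to 95th percentile of all genes tested. ERRFI1, at 0.56, is the gene outside the band, and the crosses of EGFR and CBL lie closer to 0 than their full values.

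The order of levels within the group of 10 was led by ERRFI1 in both conditions. In CSE it was followed by GRB2 (147 TPM) and SHC1 (145 TPM), which do not differ beyond the spread of SHC1, then ERBB2 (52.7 TPM), then CBL (38.9 TPM) and EGFR (37.9 TPM), which do not differ beyond their spread, then ERBB3 (22.9 TPM), LRIG1 (4.24 TPM), GAB1 (2.23 TPM) and ERBB4 (0.237 TPM). In WT the order was GRB2 (155 TPM), SHC1 (126 TPM), then ERBB2 (43.8 TPM), EGFR (42.6 TPM) and CBL (41.8 TPM), 3 genes whose ranges overlap, then ERBB3 (19.0 TPM), LRIG1 (5.85 TPM), GAB1 (2.28 TPM) and ERBB4 (0.47 TPM). SHC1 thus overlapped GRB2 in CSE and lay below it in each WT library.

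Among the genes of other proteins that dock on ERBB receptors or are recruited by them, the balance of calls depended on CSE replicate 3. The calls over all genes moved the same way, from 3130 higher and 3277 lower to 3518 higher and 3040 lower without that library. Of 22 such genes 20 were tested, 2 rose, 9 fell and 9 did not pass, with a median log2 fold change of -0.11. The shares over all genes tested were 24.5% higher and 25.6% lower. Without CSE replicate 3, 5 of the listed genes rose and 7 fell, with SOS1, SOS2 and IRS1 added to those that rose. SHC2, a neuronal relative of SHC1, had the largest change, 3.11 ± 0.390 TPM in CSE and 6.02 ± 0.320 TPM in WT (SD, n = 3 each; log2 fold change -0.78, limma adjusted p = 1.09e-07), so it fell while SHC1 rose. CRKL, an adaptor that links receptors to RAP and RAS exchange factors, fell to 85.3 TPM in CSE, against 108 TPM in WT (-0.34, limma adjusted p = 1.31e-06). GRB7, an adaptor that binds ERBB2 and whose gene lies near it on chromosome 17, rose to 72.0 ± 2.55 TPM in CSE, against 54.6 ± 2.52 TPM in WT (0.39, limma adjusted p = 3.66e-07). The other riser was RASA1 (0.25), which switches RAS off, and PTPN11, the phosphatase that GAB1 docks, fell (-0.25).

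Of 4 other listed neighbours of ERBB2 on chromosome 17, 3 were tested. PGAP3, a gene of lipid remodelling on GPI anchors that shares 194 exon bases with ERBB2 on the opposite strand, rose to 7.56 ± 0.155 TPM in CSE, against 6.22 ± 0.326 TPM in WT (log2 fold change 0.25, limma adjusted p = 0.00454). The lipid transporter gene STARD3 (-0.043) and MIEN1 (0.10) did not pass, and the lymphoid factor IKZF3 was under the filter.

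Other genes that attenuate ERBB receptors moved in both directions. Of 16 tested, 4 rose, 3 fell and 9 did not pass, with a median log2 fold change of 0.038. Across all genes tested 24.5% rose and 25.6% fell. Without CSE replicate 3, 6 of the listed genes rose and 4 fell, and over all genes 3518 rose and 3040 fell. The fallers were SOCS5 (24.7 TPM in CSE, 29.8 TPM in WT, -0.26, limma adjusted p = 0.000148), SOCS4 (17.9 TPM in CSE, 21.2 TPM in WT, -0.24, 0.00217) and LRIG2 (8.08 TPM in CSE, 9.50 TPM in WT, -0.21, 0.0142). SOCS4 and SOCS5 encode members of a family of receptor inhibitors that recruit a ubiquitin ligase, and LRIG2 is a paralog of LRIG1. LRIG2 fell with LRIG1, and the call was lost without WT replicate 1 (limma adjusted p = 0.0776). The risers were PTPRK (0.19), PTPN1 (0.18), CD2AP (0.15) and PTPN2 (0.13), of which PTPRK, PTPN1 and PTPN2 are tyrosine phosphatases. The CBL paralogs CBLB (0.12) and CBLC (0.056) did not pass, and CBLB passed as higher without CSE replicate 3.

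Genes that sort receptors after uptake had small changes. Of 14 tested, 2 rose, 3 fell and 9 did not pass (median log2 fold change -0.0019), and 3 rose and 2 fell without CSE replicate 3. With all 6 libraries, 24.5% of all genes tested rose and 25.6% fell. Over all genes, 3518 rose and 3040 fell without CSE replicate 3. EPS15, a clathrin coat component that EGFR phosphorylates, fell to 41.8 ± 3.13 TPM in CSE, against 50.2 ± 2.15 TPM in WT (-0.26, limma adjusted p = 0.000335). RAB5A, a GTPase of early endosomes, fell to 59.3 TPM in CSE, against 65.2 TPM in WT (-0.13, 0.0128). STAM, which sorts ubiquitinated receptors, had -0.15 (limma adjusted p = 0.0363), though its groups overlapped. The call of STAM was lost in 5 of 17 alternatives. Among them were the fits without CSE replicate 3 (-0.071, limma adjusted p = 0.197) and without WT replicate 1 (-0.13, 0.147). EPN2 (0.13) and STAMBP (0.13) rose.

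Of the genes below the receptors, most did not pass, whereas 50.1% of all genes tested passed, 24.5% higher and 25.6% lower. Of 14 genes from RAS to ERK, 3 rose, 1 fell and 10 did not pass (median log2 fold change -0.00037), and 5 rose and 2 fell without CSE replicate 3. The calls over all genes without that library were 3518 higher and 3040 lower. PEBP1, an inhibitor of the RAS to ERK cascade, rose to 313 ± 4.41 TPM in CSE, against 230.4 ± 3.91 TPM in WT (0.44, limma adjusted p = 2.15e-09). SHOC2, a scaffold gene of the cascade, rose (0.21), MAPK3 rose (0.14) and MAP2K1 fell (-0.16). Among the genes of the PI3K pathway, INPP4B, a lipid phosphatase, rose (0.27, limma adjusted p = 0.004), and the kinase gene MTOR had -0.16 (0.0491). The call of MTOR was lost in 11 of 17 alternatives, among them the fit without CSE replicate 3 (-0.052, limma adjusted p = 0.307).

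Receptor tyrosine kinases outside the ERBB family also gave a balance that moved with CSE replicate 3, as the calls over all genes did. Of 26 genes 21 were tested, 2 rose, 7 fell and 12 did not pass, with a median log2 fold change of -0.055. For comparison, 24.5% of all genes tested rose and 25.6% fell. Without that library 5 rose and 6 fell, the median was 0.00023 and INSR was no longer called. The largest changes were falls of DDR2 (1.10 TPM in CSE, 1.80 TPM in WT, -0.42, limma adjusted p = 0.00107), RET (7.85 TPM in CSE, 10.4 TPM in WT, -0.37, 0.000162) and FGFR4 (71.0 TPM in CSE, 88.8 TPM in WT, -0.32, 2.89e-06). The risers were DDR1 (0.31), a collagen receptor, and PTK7 (0.27), a pseudokinase, values close to those of ERBB2 (0.26) and ERBB3 (0.25). EPHA2, the most abundant of these receptors, fell by 0.14 on the log2 scale, and the adaptor-sharing receptors IGF1R (-0.24) and INSR (-0.16) fell as well.

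**Figure D5:**
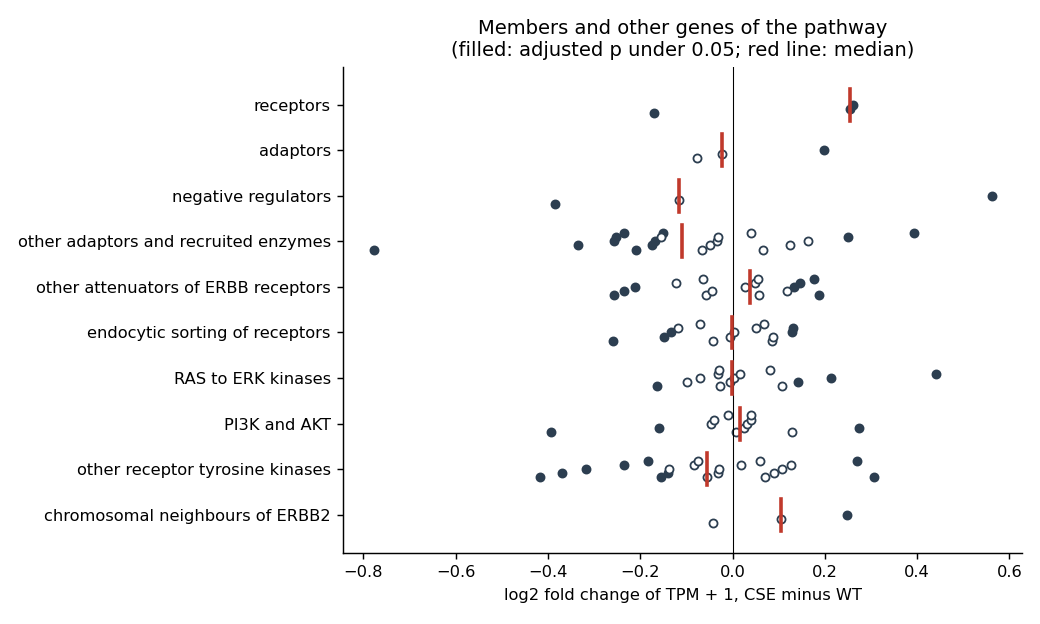
log2 fold change of TPM + 1, CSE minus WT (x axis), of each tested gene in the 3 classes and in 7 other gene lists of the pathway (y axis), filled where the adjusted p is under 0.05, with a red line at the median. SHC2 is the lowest point (-0.78) and ERRFI1 the highest (0.56).

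The genes whose values ran most like those of a member over the 6 libraries were found by the root mean square difference of log2(TPM + 1), each gene set relative to its WT mean, among 10669 other genes with a mean of at least 5 TPM. For ERRFI1 they were NCAPD2 (0.0128) and BUB1 (0.0209), for EGFR they were EMSY (0.0182) and CDC42BPA (0.0182), and for LRIG1 they were FJX1 (0.0264) and LIN52 (0.0305). NCAPD2 was at 185 TPM in CSE and 125 TPM in WT, and EMSY was at 11.9 TPM in CSE and 13.5 TPM in WT. The measure mostly picks genes with a like difference between the groups. The log2 fold change was 0.557 for NCAPD2, 0.555 for BUB1 and 0.561 for ERRFI1, in a table where 50.1% of genes tested were called. Shared regulation was not tested.

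Gene positions are from GENCODE 29 on GRCh38. The members lie apart, with ERRFI1 (8004404 to 8026308) and SHC1 (154962298 to 154974395) on chromosome 1, ERBB4 on chromosome 2 (211375717 to 212538841), LRIG1 on chromosome 3 (66378797 to 66501263), GAB1 on chromosome 4 (143336762 to 143474568) and EGFR on chromosome 7 (55019021 to 55211628). CBL is on chromosome 11 (119206276 to 119313926), ERBB3 on chromosome 12 (56076799 to 56103505), and ERBB2 (39687914 to 39730426) and GRB2 (75318076 to 75405709) are on chromosome 17. ERBB2 rose and GRB2 did not pass, and ERRFI1 and SHC1, which share chromosome 1 at distant places, both rose. All values are of mRNA and do not measure receptor protein, phosphorylation or signalling.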

How the data were processed

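RNA-seq was done on 6 libraries of HCT116 cells, 3 labelled CSE treated and 3 WT. Per the labels' protocols, Trizol RNA went into mRNA libraries after a DNase step, and these were sequenced on an Illumina instrument. Per the submitters' processing notes, FastQC 0.11.2, Trimmomatic 0.36, HISAT2 2.0, bedtools 2.26.0 and GRCh38 were used, with no role stated, and no source used here gives the counting program, annotation or strandedness. The authors deposited TPM for 20263 genes with 2 decimals. TPM divides by length and library total, so depth is unknown, no counting interval was computed and a change in abundant transcripts moves all others.

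Symbols were matched for 20148 Ensembl IDs. Genes with at least 1 TPM in at least 3 libraries (12793) were compared on log2(TPM + 1), CSE minus WT, with limma 3.58.1 in R 4.3.3 (mean-variance trend, no covariate) and Benjamini-Hochberg adjustment over all of them at 0.05. The scale understates changes of low genes. The fit was tested on simulated data. The members, lists and tests were chosen with earlier results of these data known. All members were named, with the 3 called genes of largest change from each other list and the 2 genes most like EGFR, ERRFI1 and LRIG1. A result of the PI3K list is not reported here. Genes named to spell out a count of 5 or fewer or to compare with a member, and overlapping genes, were added. Alternatives changed the pseudocount to 0.1, dropped the filter or raised it to a mean of 5 TPM, and used 3 other scalings, other variance priors, a replicate block and leaving out each library. Array weights, list counts without CSE replicate 3 and removal of a trend on exon length were added after the data were seen.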

Additional observations from a re-analysis of the deposited data

How the results depend on the processing

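ERBB2, ERBB3, SHC1 and ERRFI1 stayed higher and LRIG1 lower, past the threshold, in each of 17 alternatives, with log2 fold changes of 0.21 to 0.29 for ERBB2, 0.20 to 0.31 for ERBB3, 0.14 to 0.25 for SHC1, 0.36 to 0.59 for ERRFI1 and -0.45 to -0.32 for LRIG1. EGFR stayed lower in all 17 but missed the threshold in 5 of them, those named above, the fit without the filter (adjusted p = 0.119) and the variance prior without a trend (0.0898), so the number of receptors called lower was 0 without the trend and ranged from 0 to 1 over the fits that leave out 1 library. The number of adaptors called lower, 0 as reported, was 1, through GRB2, under quantile normalization, with mitochondrially encoded genes left out, with array weights and with the length trend removed, and 0 to 1 on leaving out 1 library. The number of restraining genes called lower was 1 to 2 on leaving out 1 library, through CBL. The sign turned for GAB1 under quantile normalization (0.038), array weights (0.0093) and removal of the length trend (0.0081), all short of the threshold. On leaving out 1 library GAB1 ranged from -0.071 to 0.058 and CBL from -0.20 to 0.026, with the sign turned for GAB1 without WT replicate 2 (0.028) and without CSE replicate 3, and for CBL without CSE replicate 3. The cause was not tested. Over all genes, 5408 to 8334 were called. Of the calls, 48.9% were higher as reported and 34.1% with mitochondrially encoded genes left out, where the median log2 fold change over all genes was -0.059, against -0.0039 as reported. The replicate number as a block gave 6537 calls and changed no call among the 9 members. Deviations from the group mean correlated between CSE and WT libraries of the same number at -0.0711, 0.015 and -0.0883 for numbers 1, 2 and 3. Pairs of different number had -0.0893 to 0.123. Such values cannot show whether libraries of the same number share a batch or culture. Depth is unknown, so precision at low levels such as those of ERBB4 and GAB1 cannot be stated.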
